A study of Homo sapiens with 6 samples.

Results

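Among the 62696 genes listed in the count tables, 8 genes of the caspase machinery were chosen by symbol: the apoptosome genes APAF1, CYCS and CASP9, the other caspase genes CASP2, CASP8 and CASP6, the caspase inhibitor gene XIAP and DIABLO, which encodes an antagonist of XIAP. All 8 passed the filter on low counts and stood among the 18569 genes tested. The cells were 12Z, an established line of epithelial cells from human endometriosis, all at passage 40, and RNA was taken 72 h after lipid transfection. Cells of 3 libraries (replicates A, B and C) received a commercial control siRNA, and cells of the other 3 libraries (replicates A, B and C) received LINC01638_2, a single siRNA against the long non-coding RNA LINC01638. Every library thus came from transfected cells, and effects of this siRNA and of the loss of its target cannot be told apart. The labels do not say that replicates were separate cultures, so the spread that p-values rest on may be technical.

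Caspases are proteases that are made as inactive precursors and, once active, cut other proteins at aspartate residues. In the mitochondrial pathway of apoptosis, cytochrome c leaves the mitochondrion and binds APAF1, which assembles into the apoptosome, a wheel-shaped complex that recruits and activates caspase-9, and caspase-9 in turn activates the executioner caspases. XIAP binds and blocks caspases, and SMAC, the product of DIABLO, leaves the mitochondrion together with cytochrome c and displaces XIAP. Caspases are regulated mostly at the protein level, by cleavage and binding. The mRNA levels here give neither the amount of the precursor proteins nor their activity.

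The sense counts per library came to between 45617234 and 58148664. LINC01638 itself stood at 407, 334 and 414 counts in control libraries A to C and at 125, 103 and 123 counts in the LINC01638 siRNA libraries (edgeR: log2 fold change −1.87 ± 0.111 SE, adjusted p = 3.73e-11). Of mapped reads, 9.18% ± 0.864 (SD, n = 3) lay outside annotated exons of the counted strand in control libraries, against 13.2% ± 1.67 in the others (two-sided exact permutation test, p = 0.1, which is the lowest value 3 against 3 can give). These are called reads outside exons below, and include reads on exons of the opposite strand alone. Of 6 epithelial markers 5 fell and 1 rose: keratin 8 (KRT8) stood at 2604 CPM (the usual count scaled to library size, here with TMM) in control libraries, whereas E-cadherin (CDH1) stood at only 8.14 CPM and EPCAM at 0.377 CPM. Of 3 mesenchymal markers 2 fell and 1 did not pass: VIM, a filament gene, fell from 2314 to 979 CPM and N-cadherin (CDH2) from 303 to 241 CPM. Immune markers summed to between 46.7 and 53.9 CPM in control and between 34.6 and 35.9 CPM in LINC01638 siRNA libraries, nearly all of it CD14, while CD3E had no count in any library, which allows up to 3 counts. Endothelial markers summed to between 1.88 and 2.20 CPM and between 3.20 and 3.79 CPM in the same order, and endometrial stromal markers to between 417 and 467 CPM and between 337 and 354 CPM. THY1 carried most of that stromal sum and fell from 407 to 294 CPM. The other 3 stromal markers, MME, PDGFRA and DES, rose (median log2 fold change of the 4 markers 0.43). For PDGFRA the groups overlapped, and DES stood at only 0.140 CPM in control libraries and lost its call in 8 alternative analyses described below. The part of these shifts in the results below was not tested.

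All 8 genes differed between the siRNAs: 5 rose (CYCS, CASP2, CASP8, XIAP and DIABLO) and 3 fell (APAF1, CASP6 and CASP9), with edgeR's quasi-likelihood test and p-values adjusted over all genes tested. In bulk RNA, fewer cells of a type and less RNA per cell cannot be told apart. Of all genes tested 56.0% passed the same threshold, 26.3% higher and 29.6% lower, and of the 9645 genes whose mean reached 10 CPM, to which 7 of the 8 belong, 70.3% passed, so a call by itself sets none of these genes apart. The 2 groups did not overlap for any of the 8 genes, which held for 61.5% of all genes. APAF1 moved the most. Its log2 fold change of −1.36 was the 300th lowest of 18569, while XIAP moved the least, with a log2 fold change of 0.21, and 33.1% of all genes moved by less in either direction. The median log2 fold change of the 8 genes was 0.25 and that of all genes tested was −0.00142.

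**Figure D1:**
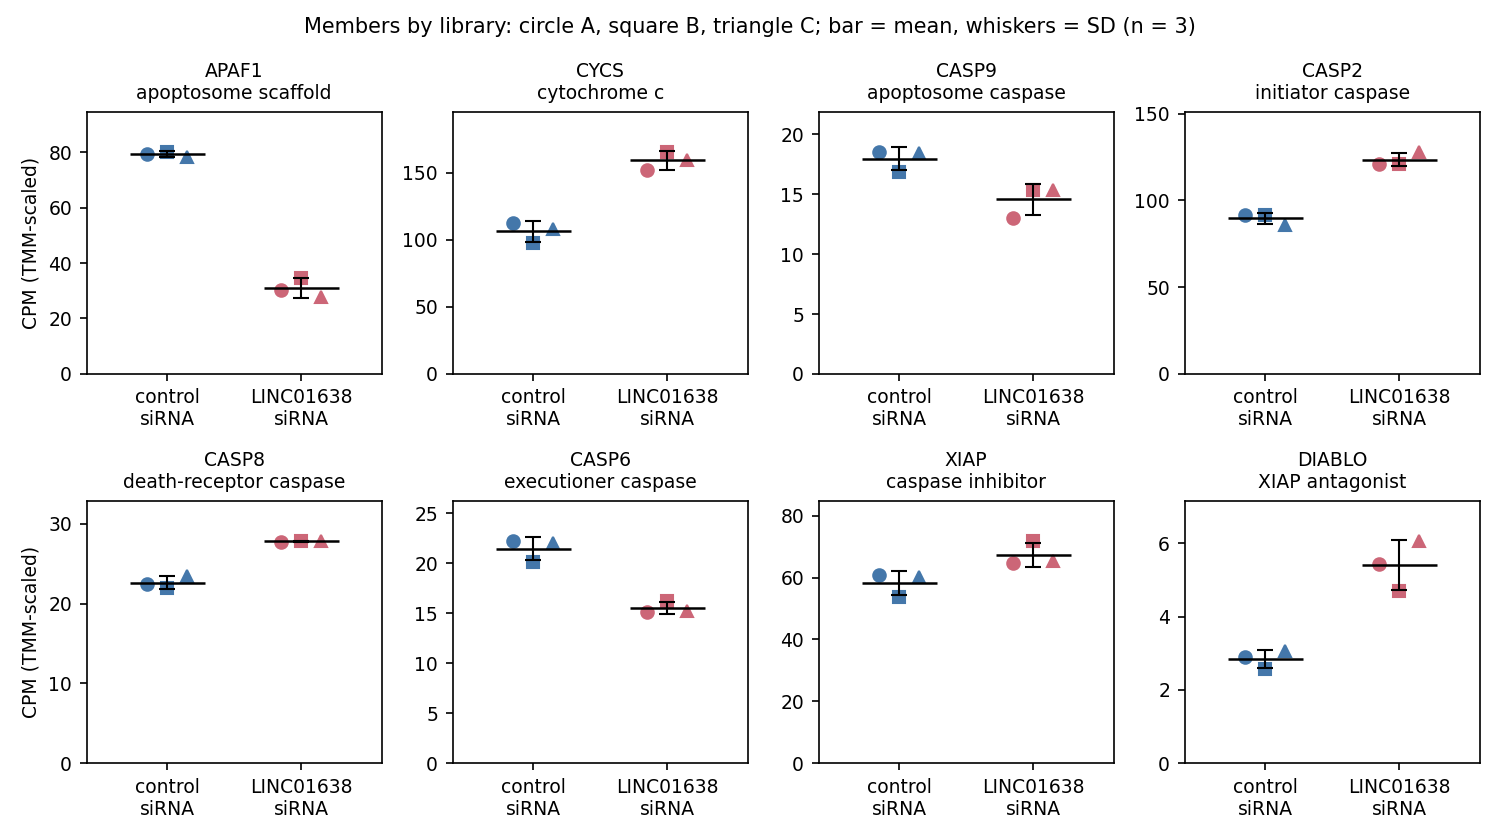
Level of each of the 8 genes in the 6 libraries, in TMM-scaled CPM on axes that start at 0; circles, squares and triangles are replicates A, B and C, the bar is the mean and the whiskers the SD (n = 3). APAF1 sits between 78.2 and 80.3 CPM in control libraries and between 27.8 and 34.7 CPM in LINC01638 siRNA libraries, and in no panel do the groups overlap.

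The 3 genes of the apoptosome itself did not move together. APAF1 (ENSG00000120868.14, GRCh38 chr12:98645141-98735433, plus strand), the scaffold, stood at 79.4, 80.3 and 78.2 CPM in control libraries A to C and at 30.4, 34.7 and 27.8 CPM in the LINC01638 siRNA libraries. Every LINC01638 siRNA library was below every control library, and the control libraries lay within 2.03 CPM of each other. APAF1 fell 2.56-fold (edgeR: log2 fold change −1.36 ± 0.0656 SE, adjusted p = 4.01e-12). CYCS (ENSG00000172115.9, chr7:25120091-25125361, minus strand), which encodes cytochrome c, an electron carrier of the respiratory chain and the trigger of the apoptosome, went the other way. Its level was 113, 97.8 and 108 CPM in control libraries A to C and 152, 166 and 160 CPM in the LINC01638 siRNA libraries. CYCS rose 1.5-fold (edgeR: log2 fold change 0.58 ± 0.0549 SE, adjusted p = 2.18e-08). CASP9 (ENSG00000132906.18, chr1:15490832-15526534, minus strand), the protease that the apoptosome activates, stood at 18.6, 16.8 and 18.4 CPM in control libraries A to C and at 13.0, 15.3 and 15.3 CPM in LINC01638 siRNA libraries A to C. The gap between the groups was small, from 15.3 to 16.8 CPM, and CASP9 fell 1.23-fold (edgeR: log2 fold change −0.30 ± 0.0782 SE, adjusted p = 0.00269). HCCS, the lyase that attaches haem to cytochrome c, fell by 0.22 on the log2 scale while CYCS rose (edgeR adjusted p = 0.00338), a call lost with library totals as the scaling (edgeR adjusted p = 0.0875).

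APAF1 lies head to head with IKBIP, a gene on the opposite strand whose annotated start is 28 bases away. IKBIP stood at 2376, 2072 and 2595 counts in control and 2601, 2817 and 2988 counts in LINC01638 siRNA libraries A to C, and did not pass the threshold (edgeR: log2 fold change 0.10 ± 0.0584 SE, adjusted p = 0.137). The log2 ratio of APAF1 to IKBIP within a library was 0.83, 0.76 and 0.68 in control libraries A to C and −0.65, −0.64 and −0.84 in the LINC01638 siRNA libraries, a difference of −1.47. The groups did not overlap (two-sided exact permutation test, p = 0.1, the lowest value possible). APAF1 was chosen with earlier results known and IKBIP did not pass, so this ratio restates the fall of APAF1 and is no further observation. The APAF1 window, which spans the GENCODE starts of both genes, is shown first, and that of CYCS, the apoptosome gene that rose, beside it. Each is the run of 250 bases before the RefSeq start (GRCh38.p14), read 5′ to 3′ on the strand of the gene, at chr12:98645040-98645289 for APAF1 and chr7:25125261-25125510 for CYCS. Capitals mark the words searched for on both strands: GGGCGG (GC box), CCAAT, GCATGCGC (bound by NRF1, a regulator of nuclear genes for mitochondrial proteins), TGACGTCA (cyclic AMP response element) and the E2F words TTTCGCGC and TTTGGCGC.

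APAF1: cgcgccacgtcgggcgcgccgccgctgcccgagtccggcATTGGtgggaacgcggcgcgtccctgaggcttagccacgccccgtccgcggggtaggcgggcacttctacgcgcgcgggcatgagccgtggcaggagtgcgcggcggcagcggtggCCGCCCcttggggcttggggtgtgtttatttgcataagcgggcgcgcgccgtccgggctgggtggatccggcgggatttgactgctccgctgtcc

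CYCS: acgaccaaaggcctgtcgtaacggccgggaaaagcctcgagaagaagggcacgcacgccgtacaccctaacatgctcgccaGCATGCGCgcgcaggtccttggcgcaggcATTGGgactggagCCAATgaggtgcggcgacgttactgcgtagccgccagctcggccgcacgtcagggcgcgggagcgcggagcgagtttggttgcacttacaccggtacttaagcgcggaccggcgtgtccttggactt

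The APAF1 window held 1 CCAAT and 1 GC box and was 73.6% G and C, where the median of all 35116 promoter windows was 58.0%. In the CYCS window stood 2 copies of CCAAT and 1 of GCATGCGC, a word found in 2.63% of all promoter windows and in none of the other 7. By comparison, 42.6% of all windows held GGGCGG and 32.0% held CCAAT. TGACGTCA and the E2F words were in none of the 8 windows. These are matches of letters and show no binding.

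APAF1 was also the single one of the 8 genes whose longest annotated 3′ untranslated region held GAATACA, a word of 7 bases that both annotated LINC01638 transcripts contain as well. The word was taken up because earlier work on these data had found it in genes with lower fold changes, so it is no independent observation. APAF1 has 2 copies, 328 and 2162 bases into a region of 2945 bases, shown here with the word in capitals, at chr12:98732797-98732826 and chr12:98734631-98734660 on the plus strand of GRCh38.

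APAF1 first copy: aaatgaaaatgtGAATACAtaccttgttgt

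APAF1 second copy: cataaatacagtGAATACAatcctttgcat

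Of 13481 protein-coding genes searched, 1580 (11.7%) held the word, 244 of them more than 1 copy. The median log2 fold change was −0.14 among genes that held it and −0.03 among those that did not. Genes that held it also had longer regions, with a median of 3244.5 bases against 1368 bases for all genes searched. Among the 4894 lower genes 15% held it. CYCS, CASP2 and XIAP, which rose, have regions of 3610, 3438 and 6798 bases without the word. CASP9 and CASP6, which fell, lack it too, in regions of 2952 and 708 bases. The sequence of the siRNA is not given in the sources used here, and whether these copies play a part in the fall of APAF1 was not tested.

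Other genes whose products bind the apoptosome or act on it moved in both directions. Of 6 such genes on the list, 2 rose and 4 fell (median log2 fold change −0.29), where 26.3% of all genes tested rose and 29.6% fell. AVEN, which binds APAF1 and keeps caspase-9 from being activated, fell with APAF1, from 25.9, 23.0 and 22.5 CPM in control libraries A to C to 11.5, 13.0 and 10.7 CPM (edgeR: log2 fold change −1.02 ± 0.0816 SE, adjusted p = 2.36e-09). APIP, an enzyme of methionine salvage named for its binding to APAF1, fell 1.37-fold, and PTMA, prothymosin alpha, an acidic nuclear protein reported to inhibit apoptosome formation, fell by 0.32 on the log2 scale. HSPB1, a small heat shock protein that can hold cytochrome c, rose 1.27-fold. AVEN, an inhibitor, and APAF1, its partner, thus both fell.

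The initiator caspases outside the apoptosome rose. CASP2 (ENSG00000106144.20, chr7:143288215-143307696, plus strand), the caspase of the PIDDosome, stood at 91.4, 91.7 and 85.6 CPM in control and at 121, 121 and 128 CPM in LINC01638 siRNA libraries A to C. The groups were far apart relative to their spread, and CASP2 rose 1.38-fold (edgeR: log2 fold change 0.46 ± 0.0486 SE, adjusted p = 9.60e-08). PIDD1, the p53-induced scaffold that gathers caspase-2, rose 1.84-fold, from 34.0, 36.3 and 32.3 CPM to 60.1, 60.2 and 68.1 CPM (edgeR: log2 fold change 0.88 ± 0.0616 SE, adjusted p = 3.86e-10). The third part of that complex, the adaptor gene CRADD, fell from 4.19 ± 0.192 to 3.16 ± 0.466 CPM (edgeR adjusted p = 0.00948), and lost its call without LINC01638 siRNA replicate C (edgeR adjusted p = 0.0532). So of the 3 PIDDosome genes 2 rose and 1 fell, where 26.3% of all genes tested rose and 29.6% fell.

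CASP8 (ENSG00000064012.24, chr2:201233443-201287711, plus strand), the initiator caspase of death receptors, stood at 22.4, 21.96 and 23.5 CPM in control libraries A to C and at 27.7, 27.9 and 27.8 CPM in LINC01638 siRNA libraries A to C. The LINC01638 siRNA libraries were within 0.185 CPM of each other. CASP8 rose 1.23-fold (edgeR: log2 fold change 0.30 ± 0.0604 SE, adjusted p = 3.28e-04). Its neighbour and paralogue CASP10 rose by a log2 fold change of 0.24 (edgeR adjusted p = 0.00261). Among 12 genes of death receptor signalling, 10 were tested, of which 6 rose and 4 fell (median log2 fold change 0.25). Of all genes tested 26.3% rose and 29.6% fell. Receptor genes moved both ways: the decoy TRAIL receptor gene TNFRSF10D rose from 39.7 ± 4.35 to 121 ± 12.0 CPM (edgeR: log2 fold change 1.604, adjusted p = 1.69e-08) and FAS, the receptor of FAS ligand, from 5.42 ± 0.485 to 12.3 ± 1.44 CPM (edgeR: log2 fold change 1.19, adjusted p = 5.71e-09). TNFRSF10B, a TRAIL receptor with a death domain, rose 1.41-fold. The receptor gene TNFRSF1A, named after its value was seen, fell from 253 ± 18.01 to 192 ± 4.72 CPM (edgeR adjusted p = 3.02e-06). The TNF receptor adaptor gene TRADD fell 1.5-fold, and the gene of the caspase-8 adaptor FADD, named after its value was seen, fell from 56.8 ± 2.67 to 44.4 ± 1.32 CPM. FASLG had no count in any library, and TNFRSF10C 14 counts in all.

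CASP6 (ENSG00000138794.10, chr4:109688622-109703583, minus strand), an executioner caspase gene whose protein cuts nuclear lamins, stood at 22.2, 20.1 and 21.98 CPM in control libraries A to C and at 15.2, 16.2 and 15.3 CPM in LINC01638 siRNA libraries A to C. All LINC01638 siRNA libraries were lower, and CASP6 fell 1.38-fold (edgeR: log2 fold change −0.47 ± 0.0693 SE, adjusted p = 9.35e-06). Of 5 inflammatory and other caspase genes 2 were tested. CASP4, the sensor of intracellular lipopolysaccharide, rose 1.42-fold (edgeR adjusted p = 2.98e-08). CASP1, the caspase of the inflammasome and a gene picked after its value was seen, had 14.2 ± 1.78 CPM with control siRNA and 14.7 ± 0.579 CPM with LINC01638 siRNA, short of the threshold (edgeR adjusted p = 0.669). CASP5, CASP12 and CASP14 had 7, 0 and 4 counts over all libraries and were not tested.

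XIAP (ENSG00000101966.14, chrX:123859724-123913979, plus strand), which blocks caspases directly, stood at 60.9, 53.8 and 60.2 CPM in control libraries A to C and at 64.6, 71.9 and 65.4 CPM in LINC01638 siRNA libraries A to C. The highest control and the lowest LINC01638 siRNA library were 3.69 CPM apart. XIAP rose 1.15-fold (edgeR: log2 fold change 0.21 ± 0.0583 SE, adjusted p = 0.00540), and its adjusted p came to 0.0436 without LINC01638 siRNA replicate B. Inhibitors of apoptosis moved both ways: of 7 genes 6 were tested, of which 2 rose and 3 fell (median log2 fold change −0.19). Among all genes tested 26.3% rose and 29.6% fell. BIRC6, a giant ubiquitin ligase, rose 1.28-fold. BIRC5, survivin, which also serves in chromosome segregation, fell from 252 ± 19.5 to 191 ± 9.24 CPM (edgeR: log2 fold change −0.40, adjusted p = 5.31e-06). BIRC3 and BIRC2, the cellular IAPs of TNF receptor complexes, fell 1.38-fold and 1.17-fold, and the call of BIRC2 was lost with library totals as the scaling (edgeR adjusted p = 0.0957).

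DIABLO (ENSG00000184047.20, chr12:122207663-122226568, minus strand) had the largest rise of the 8 genes and the fewest counts behind it. Its counts were 155, 112 and 162 in control libraries A to C and 297, 244 and 365 in the LINC01638 siRNA libraries, or 2.91, 2.56 and 3.05 CPM against 5.44, 4.70 and 6.07 CPM. Each LINC01638 siRNA library was above each control library, and DIABLO rose 1.9-fold (edgeR: log2 fold change 0.92 ± 0.125 SE, adjusted p = 3.01e-06). By the exons of GENCODE 29 these counts describe only a part of its transcripts. In GENCODE 29 a second gene, ENSG00000284934, covers 2006 of the 6774 exon bases of DIABLO on the same strand, and reads on bases that 2 genes share are assigned to neither. ENSG00000284934 had between 0 and 5 counts per library. Of the 4768 bases left there, only 217 belong to protein-coding transcripts of DIABLO, and 4551 belong only to its other annotated transcripts. If the counting used the same exons, the bases that can be counted for DIABLO lie mainly outside its coding transcripts. Where on these bases its reads fall was not analysed. The level of the spliced mRNA was not analysed here. Reads outside exons also had a higher share in the LINC01638 siRNA libraries. The annotation release used for counting is not given in the sources used here. Its table lists both genes, but of its 62696 genes only 58269 are in GENCODE 29. The exons of DIABLO in the release used for counting may therefore differ and were not checked. The part of that higher share in the rise of DIABLO was not tested.

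**Figure D2:**
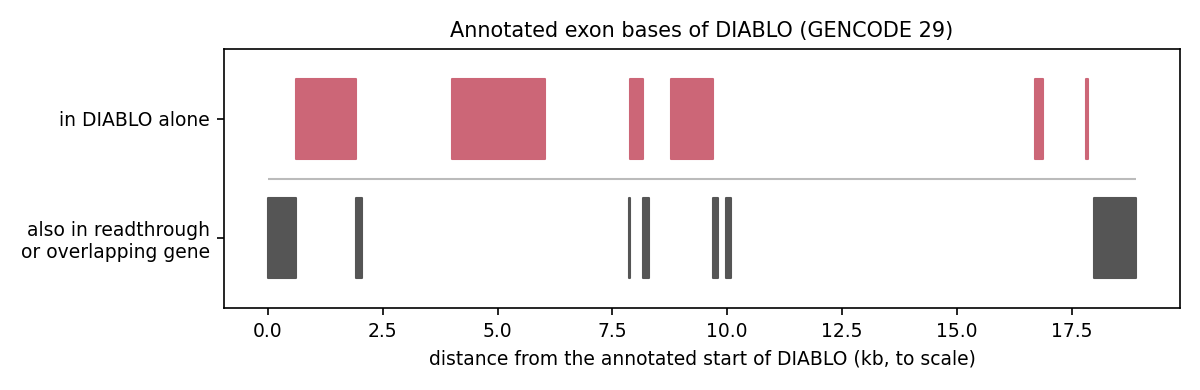
Annotated exon bases of DIABLO along the gene, as distance from its start in kb. Red blocks lie in DIABLO alone and would be counted for it if the counting used these exons. Grey blocks lie also in another gene on the same strand. The red blocks sum to 4768 bases, of which 217 are in protein-coding transcripts.

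None of the other 3 antagonists of IAPs on the list passed the threshold upwards. HTRA2, a mitochondrial serine protease that also binds XIAP, fell from 43.5 ± 2.36 to 26.4 ± 0.434 CPM (edgeR: log2 fold change −0.72 ± 0.0583 SE, adjusted p = 2.69e-09). SEPTIN4, which encodes the XIAP-binding protein ARTS, fell from 3.66 ± 0.414 to 2.37 ± 0.123 CPM (edgeR adjusted p = 4.75e-04), a call lost with counts taken without strand (edgeR adjusted p = 0.192). XAF1, an XIAP-binding factor, stood at 4.73 ± 0.412 and 5.14 ± 0.975 CPM and did not pass (edgeR adjusted p = 0.459).

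Levels can be set against each other only per length, as CPM per kb of exon bases counted for a gene. In control libraries CYCS was highest at 23.8 ± 1.72 CPM per kb, followed by CASP2 at 11.2 ± 0.425, CASP6 at 11.0 ± 0.593, APAF1 at 10.03 ± 0.128, XIAP at 6.46 ± 0.432, CASP9 at 3.41 ± 0.183, CASP8 at 3.12 ± 0.108 and DIABLO at 0.596 ± 0.0528 (SD, n = 3). CASP2 and CASP6 overlapped there, as did CASP9 and CASP8, while the other neighbours in this order did not. If the counting used the exons described above for DIABLO, most bases counted for it lie outside its coding transcripts. Where on these bases its reads fall was not analysed, so its place in this order may not be that of its mRNA. With LINC01638 siRNA APAF1 stood at 3.92 ± 0.446 CPM per kb and overlapped CASP8 at 3.84 ± 0.0128, XIAP at 7.45 ± 0.445 overlapped CASP6 at 8.0 ± 0.305, and CASP9 came to 2.76 ± 0.250. Per length there were 2.95 ± 0.196 APAF1 reads for each CASP9 read in control and 1.42 ± 0.188 in LINC01638 siRNA libraries. CYCS stood at 2.38 ± 0.191 times APAF1 in control and at 9.19 ± 0.908 times APAF1 in LINC01638 siRNA libraries, and XIAP at 1.896 ± 0.0256 and 2.705 ± 0.201 times CASP9. These ratios were formed after the fold changes were known and carry no test.

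**Figure D3:**
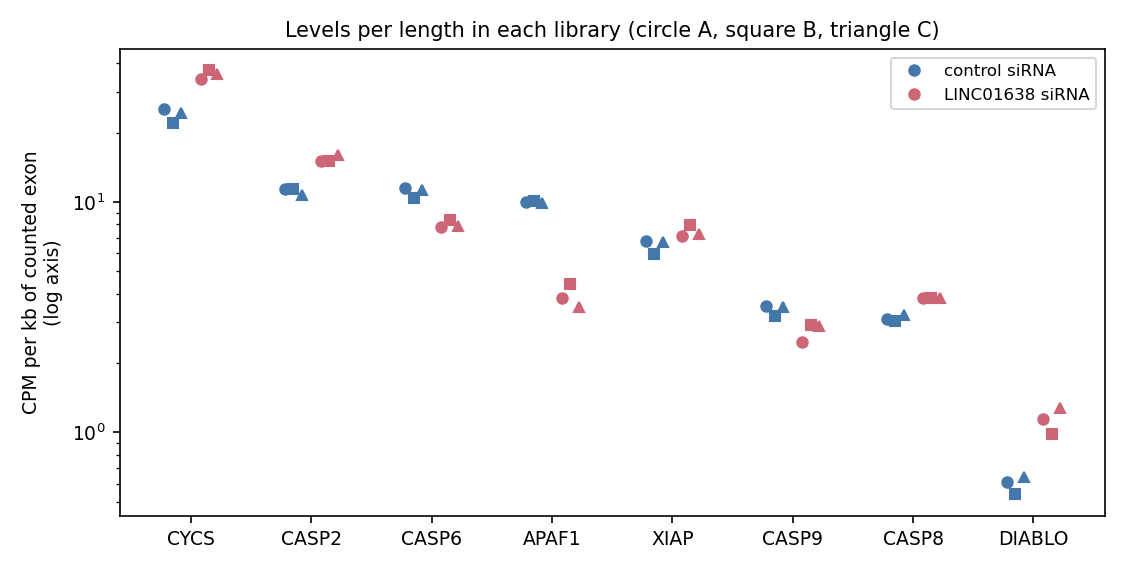
CPM per kb of counted exon for each of the 8 genes in every library, on a log axis, ordered by the control level; blue marks control and red LINC01638 siRNA libraries, with circles, squares and triangles for replicates A, B and C. APAF1 moves from 10.03 to 3.92 CPM per kb, to the level of CASP8, while CYCS stays on top. If the counting used the exons behind these lengths, most bases counted for DIABLO lie outside its coding transcripts.

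Of 12 genes of proteins that caspases cut, or that carry out the steps after cutting, 3 rose, 8 fell and 1 did not pass (median log2 fold change −0.29), beside 26.3% higher and 29.6% lower among all genes tested. GSDME, a pore-forming gasdermin, fell from 73.3, 76.3 and 70.6 CPM in control libraries A to C to 28.1, 29.5 and 26.2 CPM (edgeR: log2 fold change −1.39 ± 0.0570 SE, adjusted p = 3.02e-13), about as far as APAF1. Lamin A/C (LMNA), a target of caspase-6, fell 1.39-fold, as did ENDOG, a mitochondrial nuclease, 1.41-fold, whereas ACIN1, a factor of chromatin condensation, rose 1.3-fold. Over the 10 lists of the pathway, 48 genes reported here lay outside the 8 described above; 42 were tested, of which 15 rose, 23 fell and 4 did not pass. Because some pathway genes are not reported here, this count is not set against the share called among all genes.

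**Figure D4:**
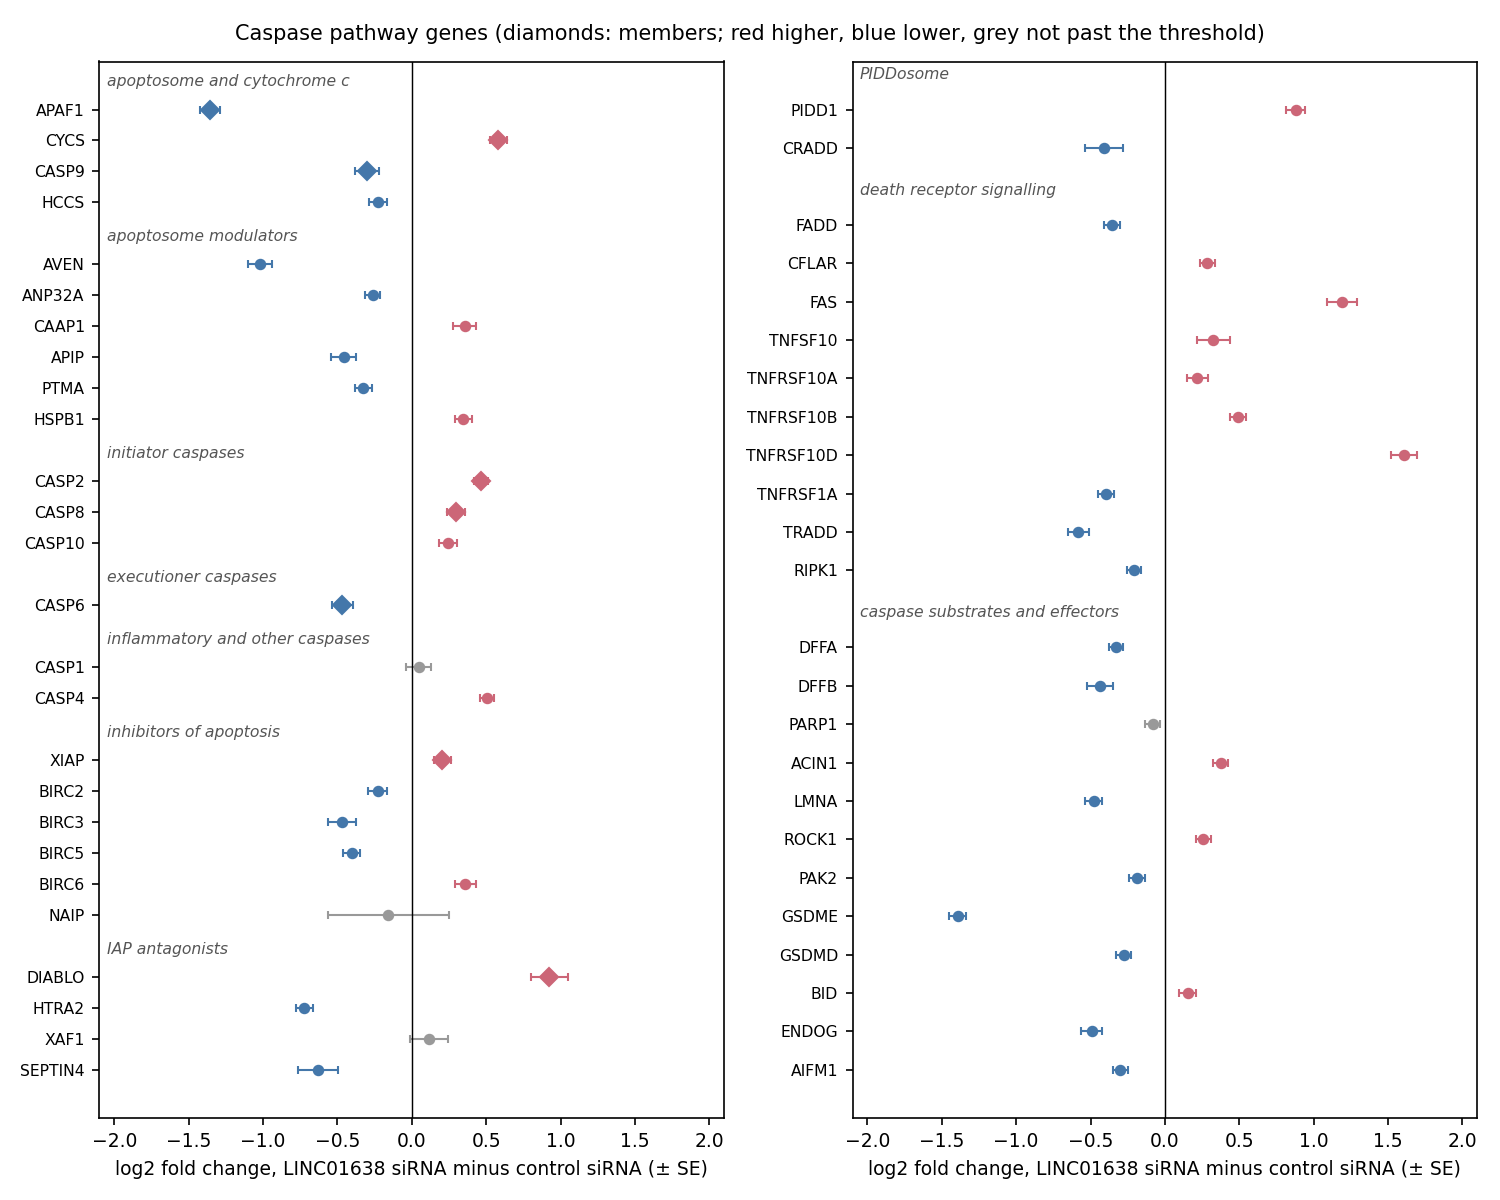
Log2 fold change with its SE for each tested gene of the 10 pathway lists; diamonds are the 8 genes and circles the others, red passed higher, blue passed lower and grey did not pass. APAF1 (−1.36), GSDME (−1.39) and AVEN (−1.02) lie farthest to the left, and TNFRSF10D (1.604) and FAS (1.19) farthest to the right.

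Reads of 50 bases can also fail to map uniquely where copies of a gene exist. Of the 50-base windows of CYCS 96.1% were absent from annotated transcripts elsewhere in the genome, although 42 CYCS pseudogenes were listed, and those together held 0.331% as many counts as CYCS. The share was lowest for XIAP, at 95.4%, and reached 99.6% for APAF1. Reads antisense to the genes made up between 0.0470% (CASP2) and 3.63% (CASP6) of the reads on both strands.

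None of the 8 calls depended on the tool, filter, scaling or any single library among the 15 alternatives run. Under library totals as the scaling, the median of all genes rose from −0.00142 to 0.101, and 6349 genes were then higher and 4288 lower, against 4887 and 5503. This scaling moves all genes by about the same amount, so values relative to the median stay as they were by construction. The smallest margins were those of CASP9, whose adjusted p reached 0.0347 with library totals, and of XIAP, as given above.

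**Figure D5:**
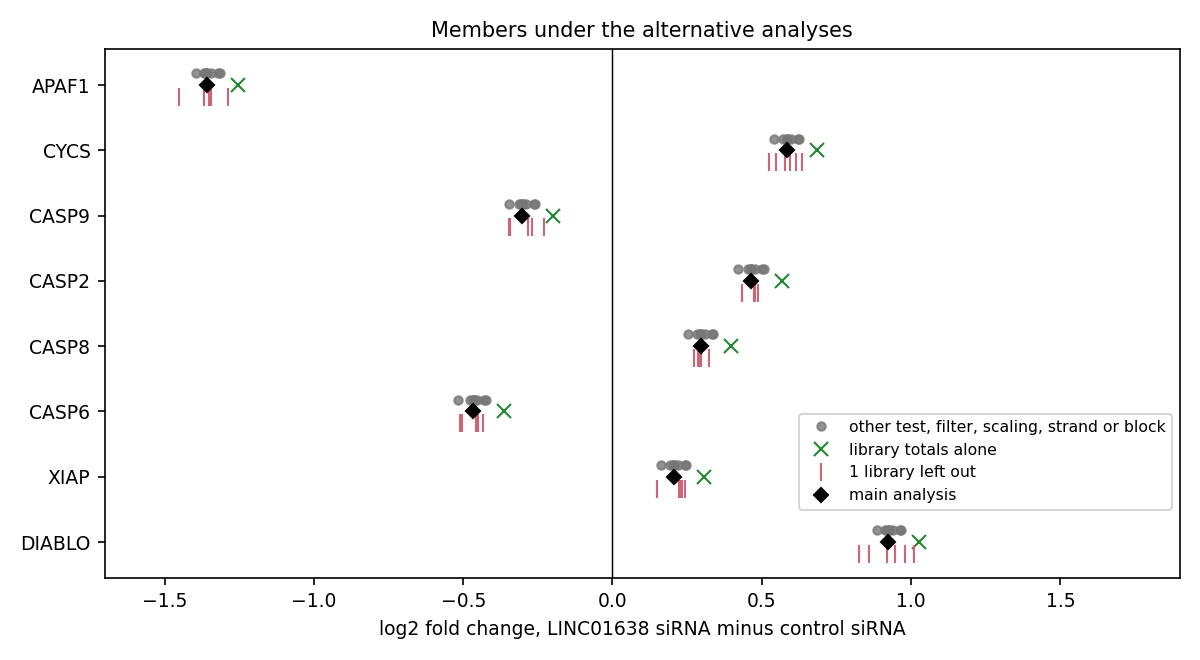
Log2 fold change of each of the 8 genes in the main analysis (black diamonds), with library totals alone (green crosses), under the other tests, filters, scalings and counts (grey dots) and with 1 library left out (red ticks). No value crosses 0, and APAF1 ranges from −1.45 to −1.26.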

How the data were processed

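Total RNA of 6 libraries was depleted of ribosomal RNA and sequenced with a directional kit, per the labels' protocols. The counts, as deposited by the authors, are whole numbers per gene without normalization. STAR 2.7.10b, R 4.2.1 and GRCh38 are named in the submitters' processing notes; for the annotation release nothing is given in the sources used here. The reverse-strand column was used, which held most reads; 4 rows that name no gene were left out. Libraries held 45617234 to 58148664 counts. Symbols matched exactly for 61918 of 62696 identifiers and without version for 754. Positions and exons came from GENCODE 29 and promoters from RefSeq (GRCh38.p14), which held all 8 genes.

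Counts were filtered (edgeR filterByExpr, minimum count 10, total 15), scaled by TMM and tested with edgeR's robust quasi-likelihood test (edgeR 4.0.16, limma 3.58.1, DESeq2 1.42.0, R 4.3.3), with Benjamini-Hochberg adjustment over 18569 genes and a threshold of 0.05. SE is the log2 fold change over the square root of F. The fit was first tested on simulated data. Alternatives were other scalings, tests, filters, the strand-free column, protein-coding genes only, a replicate block and leaving out each library. Members and lists were chosen with earlier results of these data known, and some listed genes are not reported here. Named genes are the 8 genes, those of the series title, up to 4 genes of lowest p per list or, where none passed, 2 of highest level, and neighbours that overlap a member or start within 1 kb. No 2 replicates agreed within sampling noise (chi-square per degree of freedom 5.93 to 16.5).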

Additional observations from a re-analysis of the deposited data

Results flagged for a closer look

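CASP2 was picked out of the 8 genes because its reads on the opposite strand were higher in every LINC01638 siRNA library than in any control library. These reads were not used for any comparison above. They stood at 0.0550 CPM in the lowest LINC01638 siRNA library, above the highest control library at 0.0458 CPM, and at 0.115 CPM in the highest. In counts this was 0, 2 and 1 in control libraries A to C and 3, 6 and 4 in the LINC01638 siRNA libraries, near the limit of 3 counts that a count of 0 allows. The difference was not tested.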

How the results depend on the processing

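Of 703 fold changes of 47 named genes under the alternatives, 690 kept their direction and their side of the threshold. A call was lost in 13, and none changed sign. All 47 genes had passed in the main analysis, and those from the lists were named for low p, so no call could be gained. The 8 genes kept every call. No shared effect of a replicate letter was seen: same-letter deviations correlated at −0.0753, −0.0203 and −0.0177 for A, B and C. Deviations of unlike letters correlated at −0.0317 to 0.0512. These values cannot tell whether libraries were paired by design, which the labels do not say. With the replicate block 4676 genes were higher and 5286 lower, and APAF1 stood at −1.36 and XIAP at 0.21. Of the 13 lost calls 8 were of DES, a marker at 0.140 CPM in control libraries. Low counts limit DIABLO most, at 112 to 365 per library. The share of reads outside exons was higher by 3.99 percentage points, and by 3.03 to 4.53 with a library left out.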

Other observations

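The genes that overlap or adjoin the 8 genes give a further look at these loci. DNAJC16, which starts 279 bases from CASP9 on the opposite strand, stood at 37.8 ± 2.72 and 36.7 ± 2.11 CPM and did not pass (edgeR adjusted p = 0.588). MCUB, a regulator of the mitochondrial calcium uniporter that runs into the 3′ end of CASP6 on the opposite strand, fell with it (log2 fold change −0.30, edgeR adjusted p = 3.39e-04). AC073342.1, an antisense transcript starting 835 bases from CASP2, rose with it, from 20, 13 and 15 counts in control to 39, 28 and 41 counts in LINC01638 siRNA libraries A to C (log2 fold change 1.01, edgeR adjusted p = 0.00814). B3GNT4, which shares 970 exon bases with DIABLO on the opposite strand, fell while DIABLO rose (log2 fold change −0.62, edgeR adjusted p = 0.0294). Its counts were low, at 55, 48 and 59 in control and 46, 27 and 44 in LINC01638 siRNA libraries A to C. RNU6-122P, a small RNA pseudogene inside XIAP on its own strand, had 0 counts in each control library and 6, 5 and 1 in the LINC01638 siRNA replicates, too few to test.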
